A study of Mus musculus with 10 samples.

Results

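Expression of the interleukin-23 (IL-23) and interleukin-17 (IL-17) axis was examined in carcinogen-treated back skin of mice that overexpress tristetraprolin (TTP), an RNA-binding protein that shortens the life of inflammatory mRNAs. The axis was taken as 9 genes, chosen by symbol out of the 24454 genes in the count table: the ligand subunits *Il23a* and *Il12b*, the IL-23 receptor chains *Il23r* and *Il12rb1*, the cytokines *Il17a* and *Il17f*, their receptor chains *Il17ra* and *Il17rc*, and the IL-22 receptor chain *Il22ra1*. Of these, 7 had enough counts to be tested, whereas *Il17a* and *Il17f* were too low to judge. RNA came from full-thickness, treated but tumor-free back skin of 5 wild type (WT) and 5 *Zfp36*ΔARE knockin mice, 1 library per mouse. All mice were C57BL/6 and the WT mice were littermate controls. The knockin mice carry a germ line deletion of an AU-rich instability stretch in the 3′-UTR of *Zfp36*, the gene for TTP, so the change is systemic and not tied to the skin or to any cell type. Both groups received the mutagen DMBA once (400 nmol, at 7 weeks of age) and then the tumor promoter TPA (10 nmol, 2 times a week for 20 weeks), so untreated skin does not enter any comparison here.

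IL-23 is a heterodimer that dendritic cells and macrophages secrete, and it keeps IL-17-producing lymphocytes of the skin, many of them γδ T cells, active. IL-17A and IL-17F act on keratinocytes through a receptor of the IL-17RA and IL-17RC chains, and IL-22 acts on them through IL-22RA1 and IL-10RB. Keratinocytes answer with neutrophil-attracting chemokines, antimicrobial proteins and proliferation, a circuit best known from psoriasis. TTP recognizes AU-rich elements, which are built from overlapping copies of the pentamer ATTTA in DNA letters, and recruits the machinery that removes the poly(A) tail.

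Because *Il23a* is named by the study as an mRNA that TTP targets, the annotated 3′-UTRs of the members were searched for ATTTA, for the heptamer TATTTAT and for the nonamer TTATTTATT, which contain it, on the transcript strand only. Of the 9 members, 5 held at least 1 ATTTA. The 30-base stretch with the most pentamers in each of these follows, together with that of *Il12a*, which shares a partner with *Il23a*, so that the members can be compared by sequence. The letters are read 5′ to 3′ from the GENCODE M21 transcripts (GRCm38, the same assembly as mm10), with each ATTTA in capitals, and all stretches lie in the last exon, in the 3′-UTR.
Il23a, chr10:128296179-128296208, minus strand: tgatggttATTTAttctATTTAtaaggaat
Il12b, chr11:44413473-44413502, plus strand: ATTTAagtaATTTAtgtATTTAttaATTTA
Il17a, chr1:20734203-20734232, plus strand: ATTTAtatgagctATTTAtgaatctATTTA
Il17f, chr1:20777243-20777272, minus strand: taaactattatatATTTAtgttggtagggg
Il17ra, chr6:120482874-120482903, plus strand: tcattccttgaatATTTAttctgtacctac
Il12a, chr3:68698436-68698465, plus strand: ctATTTAtATTTATTTAttttctATTTAtt

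The cytokine mRNAs carried the pentamers and most receptor mRNAs did not. *Il23a* held 6 pentamers in a 3′-UTR of 657 bases, 5 of them within TATTTAT, and was the only member with a TTATTTATT. Among the 3′-UTRs of 1668 tested genes whose length was within 20% of that of *Il23a*, 1.08% held as many pentamers and 0.3% as many heptamers. *Il17a* held 7 pentamers in 637 bases (0.432% of 3′-UTRs of similar length held as many) and *Il12b* held 6 in 774 bases (1.79%). *Il17f* held 3 in 621 bases (12.8%). *Il17ra* also held 6, but in 5075 bases, and 72.8% of 3′-UTRs of that length held as many. *Il12rb1*, *Il23r*, *Il17rc* and *Il22ra1* held 0 in 553, 433, 21 and 775 bases. Of 3′-UTRs of similar length, 53.5%, 46.6%, 2.22% and 64.2% held at least 1, so a 0 was common at these lengths. For comparison, 65.8% of the 14317 tested genes with an annotated 3′-UTR held an ATTTA, 27.4% a TATTTAT and 7.11% a TTATTTATT, at a median length of 976 bases. A match describes the letters of the reference and not a bound site. The transcripts of *Il17ra* (7752 bases against 3970 in the count table), *Il22ra1* (2569 against 5825) and *Il12b* (1944 against 2505) differed in length from the models behind the counts, so the 3′-UTRs that were counted may differ too.

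**Figure D1:**
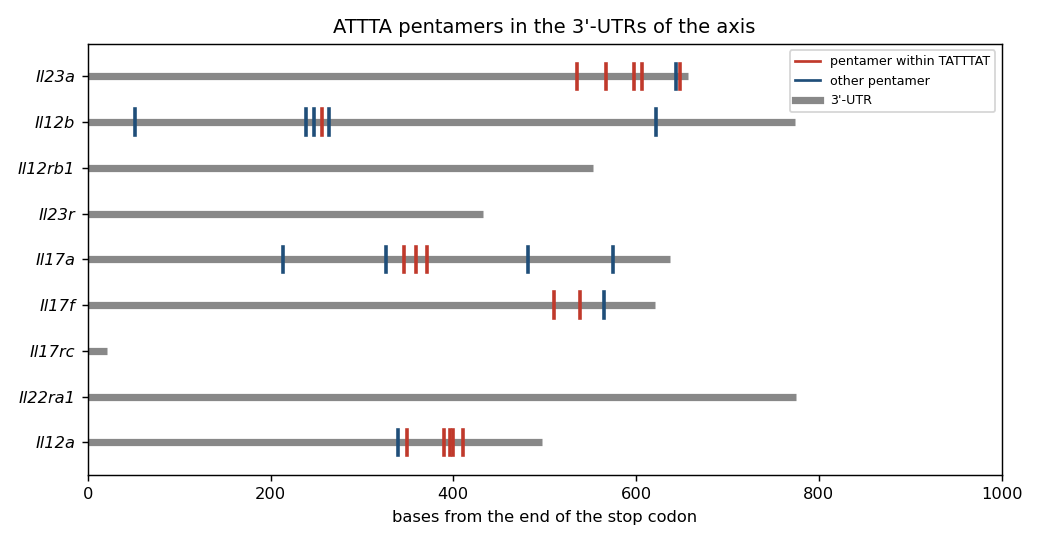
Position of each ATTTA pentamer (ticks) along the annotated 3′-UTR (gray bar), in bases from the end of the stop codon, for 8 members and for Il12a; red ticks lie within TATTTAT. The 6 pentamers of Il23a sit in the last part of its 3′-UTR, from base 533 on, and Il12rb1, Il23r, Il17rc and Il22ra1 have none (Il17ra, with 5075 bases, is not drawn).

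Libraries held 19595024 to 36419553 counts, with overlapping depth in the 2 groups. *Zfp36* itself was at 1824 to 2496 normalized counts in WT and at 4196 to 6134 in *Zfp36*ΔARE skin, with no overlap, a log2 fold change of 1.33 (SE 0.119; Benjamini-Hochberg adjusted p = 0.0019, edgeR quasi-likelihood test). A normalized count is a count scaled by edgeR's TMM factors to the mean effective library size. Several libraries stood apart. WT replicates 1 and 3 had summed hair shaft transcripts of 580 and 99.2 counts per 1000000 (CPM) against 2828 to 3800 in the other WT libraries and 5881 to 17227 in *Zfp36*ΔARE skin. Y-linked transcripts were abundant in *Zfp36*ΔARE replicates 2 to 5 and near 0 in *Zfp36*ΔARE replicate 1 and in WT, so the sex of the mice and the genotype cannot be told apart beyond that mouse. The results below are therefore also given without WT replicates 1 and 3, and for *Zfp36*ΔARE replicate 1 alone, where they turn on these libraries.

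Per length of transcript, the receptor chains for IL-17 and IL-22 were well expressed in treated skin and the cytokines and IL-23 receptor chains were low. On the RPKM scale (CPM per kilobase of transcript), WT skin had 29.7 ± 2.33 for *Il17rc*, 12.8 ± 0.961 for *Il22ra1* and 11.5 ± 1.77 for *Il17ra* (mean ± SD, n = 5 mice). The other members were all below 1 in each WT library: the RPKM mean was 0.631 ± 0.187 for *Il23a*, 0.403 ± 0.0600 for *Il12rb1*, 0.320 ± 0.169 for *Il12b*, 0.300 ± 0.152 for *Il17f*, 0.202 ± 0.0582 for *Il23r* and 0.0619 ± 0.0382 for *Il17a*. Within this order the WT ranges lay apart between *Il17rc* and *Il22ra1*, between *Il17ra* and *Il23a*, and between *Il23r* and *Il17a*, and the ranges of the other neighbors overlapped. RPKM used the lengths in the count table, 5825 bases for *Il22ra1* and 3970 for *Il17ra*. The GENCODE M21 transcripts have 2569 and 7752 bases, so how far the receptor chains lie apart depends on the lengths used. In *Zfp36*ΔARE skin the order began the same way, with RPKM means of 25.7 ± 4.11 for *Il17rc*, 12.0 ± 1.31 for *Il22ra1* and 9.72 ± 0.911 for *Il17ra* (n = 5 mice), the last pair overlapping. Next came *Il12rb1* at 0.343 ± 0.173, *Il17f* at 0.315 ± 0.272, *Il23a* at 0.262 ± 0.0763, *Il12b* at 0.224 ± 0.0837, *Il23r* at 0.0933 ± 0.0561 and *Il17a* at 0.0916 ± 0.0950, and within these 6 the ranges of all neighbors overlapped.

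Of the 7 tested members, 1 differed between the groups (14.3%), against 34.3% of all 15543 tested genes called at a Benjamini-Hochberg adjusted p under 0.05 by edgeR's quasi-likelihood test. It was lower in *Zfp36*ΔARE skin, as were 19.1% of all genes tested. The share of members called was thus not above the background. All 7 fitted log2 fold changes were negative, with a median of -0.25 against 0.0076 over all tested genes. The shared sign holds for tested members only, and the filter on low counts bears on it. *Il23r* passed that filter mostly through WT libraries. *Il17f*, at a like mean (9.66 against 9.79 normalized counts for *Il23r*), did not pass. With genes of low count kept in the fit, *Il17a* was at 0.40 and *Il17f* at -0.03. The called member was *Il23a*, and the count was 0 with WT replicates 1 and 3 left out and 3 without WT replicate 5.

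*Il23a* (Entrez 83430; chr10:128296139-128298752, minus strand), which encodes the p19 subunit that is particular to IL-23, was lower in *Zfp36*ΔARE skin. The study also reported *Il23a* as lower in these samples. The WT libraries had 24, 20, 27, 18 and 25 counts (replicates 1 to 5), and the *Zfp36*ΔARE libraries 10, 15, 6, 8 and 7. Normalized counts were 22.1, 16.2, 32.9, 17.5 and 25.8 in WT and 7.49, 13.6, 6.59, 10.7 and 9.23 in *Zfp36*ΔARE mice. The highest *Zfp36*ΔARE library was below the lowest WT library, and 11.9% of all tested genes were set apart in this direction. The knockin mouse that lacked Y-linked transcripts, replicate 1, also lay below the whole WT group. The group means were 22.9 ± 6.80 and 9.51 ± 2.77 normalized counts (SD, n = 5 each), 2.37-fold lower in *Zfp36*ΔARE skin (log2 fold change -1.24, SE 0.284, 95% interval -1.87 to -0.62; adjusted p = 0.0116, edgeR quasi-likelihood test). *Il23a* therefore also passed the fold of 2 that the study asked for, as did 8.31% of all tested genes in either direction and 6.64% in this one. The call rests on 114 WT and 46 *Zfp36*ΔARE counts in all. Without WT replicates 1 and 3 the log2 fold change was -1.05 and the adjusted p 0.0532, so the call did not hold without them.

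*Il23a* was lower in the same libraries in which myeloid markers were lower. Of 14 macrophage markers, 13 were called lower (median log2 fold change -1.37), and their summed level was 1061 to 2096 CPM in WT and 464 to 726 CPM in *Zfp36*ΔARE libraries. *Lyz2* and *Mrc1*, a lysozyme and a scavenger receptor of macrophages, had the most counts on that list, with log2 fold changes of -1.89 and -1.40. Of 13 dendritic and Langerhans cell markers, 9 were called lower (median -0.77), with summed levels of 1250 to 2094 CPM in WT and 718 to 1081 CPM in *Zfp36*ΔARE libraries, and the antigen presentation genes *Cd74* and *H2-Ab1* had log2 fold changes of -1.01 and -0.85. No marker on either list was at 0 in all libraries. Over all tested genes, 19.1% were called lower and 15.3% higher. Other tissue of the biopsies moved too, with 9 of 10 skeletal muscle markers and 6 of 8 adipocyte markers called lower (summed CPM 7827 to 38494 and 1173 to 2313 in WT, 4537 to 10093 and 808 to 1149 in *Zfp36*ΔARE libraries) and 3 of 11 hair shaft markers called higher. Their part in the *Il23a* result was not tested, and in bulk skin fewer IL-23-producing cells and less *Il23a* mRNA per cell cannot be told apart.

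**Figure D2:**
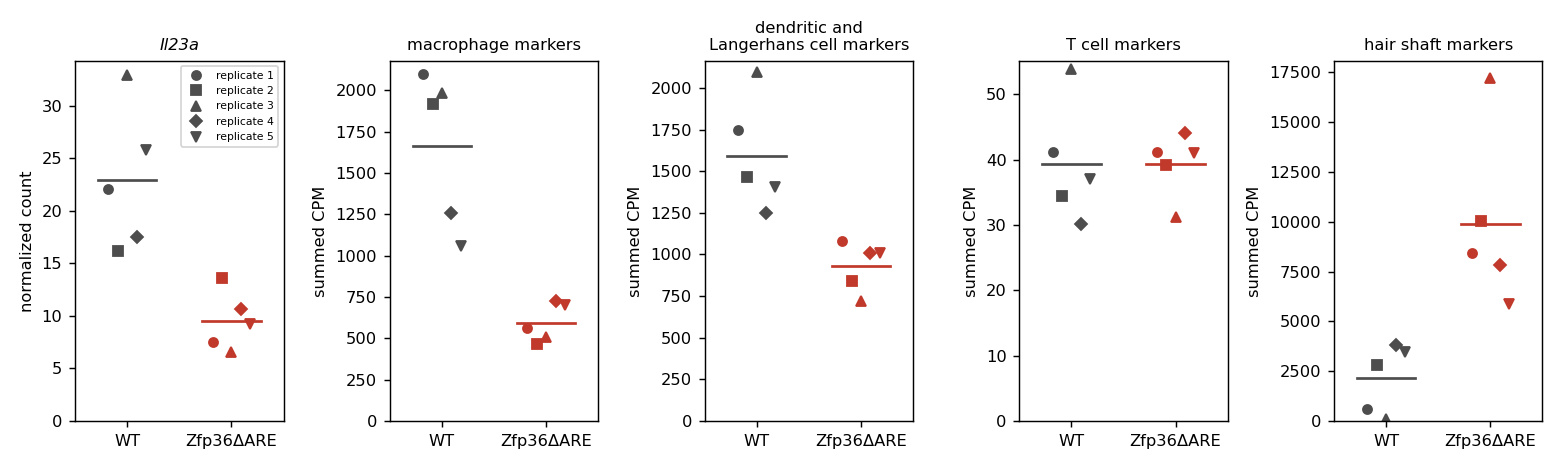
Il23a in normalized counts beside the summed CPM of 4 marker lists in the same 10 libraries, with a symbol per replicate and a line at the group mean. The Il23a, macrophage and dendritic cell values of the Zfp36ΔARE mice all lie below those of the WT mice, the T cell values overlap, and the hair shaft values of WT replicates 1 and 3 lie below those of all other libraries.

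*Il12b* (Entrez 16160; chr11:44400063-44414033), which encodes the p40 subunit that IL-23 shares with IL-12, did not pass the test. Normalized counts were 25.8, 16.96, 36.6, 5.82 and 21.7 in WT and 21.0, 10.9, 9.88, 12.0 and 21.1 in *Zfp36*ΔARE libraries. WT replicate 4 was the lowest of all 10 and the other values overlapped. The means were 21.4 ± 11.3 and 14.97 ± 5.59 (SD, n = 5 each). The 95% interval of the log2 fold change, -0.49, ran from -1.42 to 0.45 (adjusted p = 0.384, edgeR quasi-likelihood test). A decrease to 0.373 of the WT level and an increase to 1.37 times that level both lie within the error. Without WT replicates 1 and 3 the log2 fold change was 0.02.

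Further chains of the IL-12 cytokine family were also counted. *Il12a*, the p35 chain that makes IL-12 with the *Il12b* product, had 6, 10, 15, 21 and 10 counts in WT and 3, 2, 3, 3 and 2 in *Zfp36*ΔARE libraries, too few to pass the filter on low counts. No library of *Zfp36*ΔARE mice reached the lowest WT library, at 5.53 normalized counts. With the filter left off, the log2 fold change of *Il12a* was -2.14 (SE 0.462; adjusted p = 0.0103, edgeR quasi-likelihood test). Its 3′-UTR held 6 ATTTA in 497 bases, and 0.617% of 3′-UTRs of that length held as many. *Ebi3*, a relative of *Il12b* that forms IL-27 and IL-35, fell from 76.4 ± 10.3 to 41.8 ± 14.4 normalized counts (SD, n = 5 each; log2 fold change -0.87, SE 0.238, adjusted p = 0.0203, edgeR quasi-likelihood test), and the groups did not overlap. Its 3′-UTR of 245 bases held 1 ATTTA. Without WT replicates 1 and 3 the log2 fold change of *Ebi3* was -0.78 (adjusted p = 0.0857).

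*Il23r* (Entrez 209590; chr6:67422932-67491855, minus strand) encodes the chain that gives the receptor its specificity for IL-23 and is expressed by type 17 lymphocytes. The WT libraries had 12.0, 15.3, 15.9, 16.5 and 7.22 normalized counts, and the *Zfp36*ΔARE libraries 1.499, 5.43, 5.49, 6.68 and 11.9. The groups overlapped only through WT replicate 5 and *Zfp36*ΔARE replicate 5. The means were 13.4 ± 3.86 and 6.19 ± 3.73 (SD, n = 5 each), and the log2 fold change was -1.19 (SE 0.430, 95% interval -2.14 to -0.24) and missed the threshold (adjusted p = 0.0533, edgeR quasi-likelihood test). With 69 WT and 27 *Zfp36*ΔARE counts in all, the size was near that of *Il23a* with a wider error. *Il23r* passed in 3 of 18 alternatives, with DESeq2 (adjusted p = 0.0442) and with either replicate 5 left out, that of WT (0.0398) or that of *Zfp36*ΔARE mice (0.0264). In the other alternatives it did not pass, with adjusted p up to 0.210, and it was at -1.17 (0.153) without WT replicates 1 and 3.

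*Il12rb1* (Entrez 16161; chr8:70808449-70821424) encodes the chain that the receptors of IL-12 and IL-23 share. It had 35.0, 33.1, 32.9, 23.3 and 29.9 normalized counts in WT and 45.7, 29.0, 8.78, 24.0 and 23.7 in *Zfp36*ΔARE libraries. The highest and the lowest of the 10 values were both from *Zfp36*ΔARE mice. The log2 fold change was -0.21 (95% interval -0.95 to 0.54; adjusted p = 0.652, edgeR quasi-likelihood test), and without *Zfp36*ΔARE replicate 3 it was 0.0080. *Il12rb2*, the chain specific to the IL-12 receptor, was at a log2 fold change of -0.08 (adjusted p = 0.833), with a sign that depended on the libraries used. T cell markers were called in 0 of 10 genes by edgeR, against 34.3% of all tested genes, with none at 0 in all libraries. They summed to 30.1 to 53.9 CPM in WT and 31.2 to 44.1 CPM in *Zfp36*ΔARE libraries. The most abundant of them, *Lck* and *Cd4*, had log2 fold changes of 0.21 and -0.01.

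*Il17a* (Entrez 16171; chr1:20730905-20734496), the signature cytokine of type 17 lymphocytes, was at the limit of detection. The WT libraries had 0, 4, 2, 2 and 2 counts and the *Zfp36*ΔARE libraries 1, 2, 1, 6 and 2. The 10 WT counts correspond to 0.0729 CPM (exact Poisson 95% interval 0.0349 to 0.134) and the 12 *Zfp36*ΔARE counts to 0.0926 (0.0478 to 0.162). These intervals cover counting error only and overlap almost entirely. *Zfp36*ΔARE replicate 4 alone held 6 of the 12 counts.

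*Il17f* (Entrez 257630; chr1:20777146-20790617, minus strand), the neighbor of *Il17a* in the genome and its relative in sequence and function, had 13, 20, 5, 9 and 4 counts in WT and 5, 6, 4, 18 and 9 in *Zfp36*ΔARE libraries. The sums of 51 and 42 correspond to 0.372 (exact Poisson 95% interval 0.277 to 0.489) and 0.324 (0.234 to 0.438) CPM. As for *Il17a*, *Zfp36*ΔARE replicate 4 was the highest of its group, and the groups overlapped. Both genes failed the filter on low counts. With the filter left off, edgeR gave a log2 fold change of 0.40 for *Il17a* (95% interval -1.27 to 2.06) and of -0.03 for *Il17f* (-1.22 to 1.15), so neither a decrease nor an increase of 2-fold could be told from no difference at this depth. *Il22*, the cytokine that signals through *Il22ra1*, had 0 counts in all WT libraries, which allows at most 0.0269 CPM by the exact Poisson limit, and 1 count in *Zfp36*ΔARE replicate 3.

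The chains of the IL-17 receptor were measured far more precisely. *Il17ra* (Entrez 16172; chr6:120463247-120487559), the chain common to the receptors of the IL-17 family, had 1492, 1290, 1097, 1225 and 1006 normalized counts in WT and 1067, 962, 1004, 1178 and 936 in *Zfp36*ΔARE libraries. WT replicates 1, 2 and 4 were above all *Zfp36*ΔARE libraries and replicates 3 and 5 were within their range. The log2 fold change was -0.25 (SE 0.107, 95% interval -0.48 to -0.01; adjusted p = 0.0923, edgeR quasi-likelihood test). *Il17ra* passed in 1 of 19 alternatives, without WT replicate 5 (-0.31, adjusted p = 0.0406). It was at -0.17 without WT replicate 1 (0.204) and at -0.19 without WT replicates 1 and 3 (0.202).

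*Il17rc* (Entrez 171095; chr6:113471427-113483140), the chain that with *Il17ra* binds IL-17A and IL-17F, had 1789, 1683, 1891, 1938 and 2072 normalized counts in WT and 1529, 1556, 1287, 1964 and 1787 in *Zfp36*ΔARE libraries. Replicates 1, 2 and 3 of the *Zfp36*ΔARE group were below all WT libraries and replicates 4 and 5 were within their range. The log2 fold change was -0.21 (SE 0.107, 95% interval -0.44 to 0.03; adjusted p = 0.148, edgeR quasi-likelihood test). The chains that pair with *Il17ra* for other IL-17 family cytokines, *Il17re* for IL-17C and *Il17rb* for IL-25, were at 0.10 and 0.04 (adjusted p = 0.225 and 0.843). *Il17re* ends just before *Il17rc* begins on the same strand, and whether reads between them were shared was not tested.

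*Il22ra1* (Entrez 230828; chr4:135728172-135752140), which keratinocytes and not lymphocytes express, was the steadiest member. It had 1749, 1939, 2100, 2073 and 2087 normalized counts in WT and 1984, 1827, 1520, 1924 and 2032 in *Zfp36*ΔARE libraries, and the groups overlapped. The log2 fold change was -0.10 (SE 0.0856) with a 95% interval of -0.29 to 0.09, that is between 0.819 and 1.06 times the WT level (adjusted p = 0.378, edgeR quasi-likelihood test). Its partner *Il10rb*, which is found on many cell types, was called lower (log2 fold change -0.37, SE 0.126; adjusted p = 0.0441), but in 9 of 19 alternatives only, with an adjusted p of 0.198 without WT replicates 1 and 3. The libraries whose removal by itself ended the call were WT replicates 1, 2 and 3 and *Zfp36*ΔARE replicates 1, 2, 3 and 5 (0.0678 to 0.0946). Keratinocyte markers were called in 0 of 9 genes by edgeR, against 34.3% of all tested genes. Their summed levels were 16945 to 24569 CPM in WT and 12933 to 26682 CPM in *Zfp36*ΔARE libraries. *Krt5* and *Krt10*, keratins of basal and suprabasal cells, had log2 fold changes of -0.07 and -0.62 (adjusted p = 0.803 and 0.0683).

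**Figure D3:**
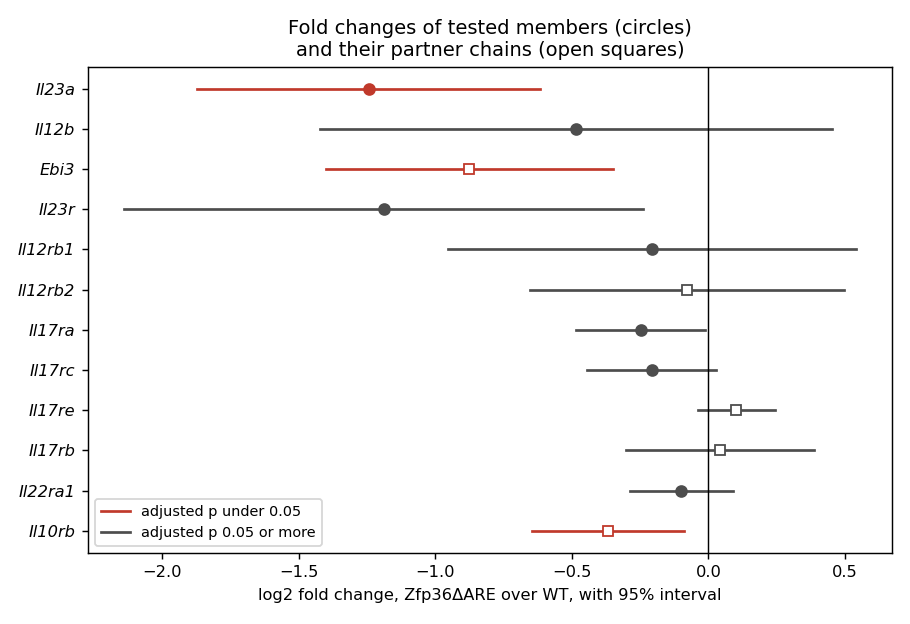
Log2 fold change of Zfp36ΔARE over WT skin with its 95% interval. Circles are the 7 tested members, and open squares are chains that pair with them and Ebi3, a relative of Il12b. Red marks an adjusted p under 0.05. Among the members the interval of Il23a, from -1.87 to -0.62, is the one marked, and those of Il17rc and Il22ra1 are narrow and include 0.

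The wider pathway was described with 6 lists, of which 94 genes were found in the count table and 81 were tested. Of the tested genes, 29 were called (35.8%, near the 34.3% of all tested genes), 25 lower and 4 higher. Over all tested genes, 19.1% were called lower and 15.3% higher, a more even split than in the lists. These shares are also the background for the falls and rises of each list below. Of the 29 called genes, 9 were still called without WT replicates 1 and 3, and 16 were when *Zfp36*ΔARE replicate 1 was left out. The count of genes called higher was 0 without WT replicate 1, *Zfp36*ΔARE replicate 2 or *Zfp36*ΔARE replicate 3. Of the called pathway genes named by rule, *Il6st*, *Jak1*, *Nfkbia* and *Cxcl3* passed in every alternative that tested them, and each of the others missed the threshold in at least 1.

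Among 14 further ligands, 5 passed the filter on low counts. Of these, 60% were called, against 34.3% of all tested genes, and 3 fell and 0 rose (median log2 fold change -0.37). Besides *Ebi3*, these were *Il1b* and *Tgfb1*, cytokines that help to induce type 17 lymphocytes. The paper also lists IL-1β, the product of *Il1b*, among cytokines that TTP controls in macrophages and dendritic cells. *Il1b* had 154, 99.4, 140, 105 and 97.0 normalized counts in WT and 41.2, 31.7, 30.7, 122 and 42.2 in *Zfp36*ΔARE libraries. *Zfp36*ΔARE replicate 4 alone lay among the WT values, and the log2 fold change was -1.17 (SE 0.372; adjusted p = 0.0342, edgeR quasi-likelihood test). *Tgfb1* was at -0.37 (adjusted p = 0.0257). None of these 3 was called without WT replicates 1 and 3. *Il17b* and *Il17d* did not pass, at log2 fold changes of 0.61 and -0.31. The remaining 9 ligands failed the filter on low counts. They include *Il12a*, described above, and *Il19* and *Il24*, which had means of 22.8 and 12.7 normalized counts but were uneven between mice.

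Of 9 further receptor chains, 4 fell and 0 rose (44.4% called against 34.3% of all tested genes, median log2 fold change -0.21). *Il6st*, the gp130 chain of the IL-6 and IL-27 receptors, had 6468 to 9902 normalized counts in WT and 4946 to 5271 in *Zfp36*ΔARE skin, with no overlap (log2 fold change -0.59, SE 0.116; adjusted p = 0.0079, edgeR quasi-likelihood test). *Il20ra* and *Il20rb*, which together form a receptor of IL-19, IL-20 and IL-24 on keratinocytes, were at -0.58 and -0.41. *Il6st* was called in all 19 alternatives. *Il20rb* was called without WT replicates 1 and 3 but not with *Zfp36*ΔARE replicate 1, 2 or 3 left out (adjusted p = 0.0537 to 0.0592), and *Il20ra* and *Il10rb* were not called without WT replicates 1 and 3. *Il17rd* did not pass, at -0.21.

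Of 17 signalling genes, 3 fell and 2 rose (29.4% called against 34.3% of all tested genes, median log2 fold change -0.01). The kinase *Jak1* and the transcription factor *Stat3*, which transmit IL-22 and IL-6 family signals, were at -0.58 and -0.46 (adjusted p = 0.0066 and 0.0394, edgeR quasi-likelihood test), and only *Jak1* was called without WT replicates 1 and 3. *Cebpd*, a transcription factor induced by IL-17, was at -1.03, and it is named here although its counts were below those of the other 4. *Map3k7*, the kinase TAK1, and *Elavl1*, the RNA-stabilizing protein HuR, were both 0.19 to 0.20 higher on the log2 scale (adjusted p = 0.0467 and 0.0384), and neither was called without WT replicates 1 and 3 (0.169 and 0.141) or without *Zfp36*ΔARE replicate 1 (0.0740 and 0.0754). The adaptor partners *Tab2* and *Traf6* did not pass, at 0.08 each.

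Of 8 brakes on IL-17 signalling, 3 fell and 1 rose (50% called against 34.3% of all tested genes, median log2 fold change -0.12). *Nfkbia*, the inhibitor of NF-κB, and *Dusp1*, a phosphatase that dampens MAP kinases, were at -0.49 and -0.75 (adjusted p = 0.0074 and 0.0256, edgeR quasi-likelihood test). The deubiquitinase *Usp25* was at -0.17, and *Traf4*, which competes for the IL-17 receptor adaptor, was at 0.41 (adjusted p = 0.0284). *Zc3h12a*, the RNase regnase-1, and *Traf3* did not pass, at -0.11 and 0.13. *Nfkbia* alone of the 4 was called without WT replicates 1 and 3.

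Of 28 genes known to respond to IL-17 or IL-22 in keratinocytes, 24 were tested (16.7% called, against 34.3% of all tested genes). Their median log2 fold change was -0.07, and 4 fell and 0 rose. All 4 were chemokines. *Cxcl3*, a neutrophil attractant, had 48, 18, 34, 13 and 28 counts in WT and 0, 1, 2, 6 and 3 in *Zfp36*ΔARE libraries, with no overlap (log2 fold change -3.38, SE 0.672; adjusted p = 0.0080, edgeR quasi-likelihood test). *Cxcl5*, another, had 28, 15, 12, 16 and 15 counts in WT and 6, 4, 4, 7 and 4 in *Zfp36*ΔARE libraries (log2 fold change -1.65, SE 0.325; adjusted p = 0.0078). *Cxcl2* was at -2.70 (adjusted p = 0.0192), and also had no overlap. The study names *Cxcl2*, like *Il23a*, as a known TTP target that was lower in these skin samples. Whether its fall reflects IL-17 signalling was not tested. *Ccl20*, the ligand of CCR6 on type 17 lymphocytes, had 67.2, 66.2, 76.9, 46.6 and 33.0 normalized counts in WT and 17.2, 11.8, 23.1, 40.1 and 22.4 in *Zfp36*ΔARE libraries. Its groups overlapped only through WT replicate 5 and *Zfp36*ΔARE replicate 4 (log2 fold change -1.37, SE 0.333; adjusted p = 0.0143). *Cxcl3* and *Cxcl5* were called without WT replicates 1 and 3, and *Cxcl2* and *Ccl20* were not. *Cxcl3* and *Cxcl5* had at most 6 and 7 counts in any *Zfp36*ΔARE library and passed the filter on low counts through the WT libraries. Their direction thus partly follows from the filter. Neutrophil markers summed to 16.8 to 28.1 CPM in WT and 7.49 to 29.6 CPM in *Zfp36*ΔARE libraries. Of 4 tested genes, 1 was called lower, against 19.1% of all tested genes. The part of neutrophils in these values was not tested.

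The keratins and antimicrobial genes of that list did not pass. *Krt17* and *Krt6a*, keratins of activated epidermis, had the most counts of those not called and were at log2 fold changes of 0.17 and 0.04, with a sign that depended on which libraries were used. *S100a8*, *S100a9*, *S100a7a* and *Lcn2* are named here after their values were seen. *S100a8* and *S100a9*, the calprotectin subunits, were at 0.72 and 0.81, with *Zfp36*ΔARE replicate 4 at 6290 and 12004 normalized counts against at most 1688 and 2281 in the other *Zfp36*ΔARE libraries. *S100a7a*, a psoriasin relative, was at 47.6 to 1295 normalized counts in WT and 1311 to 2725 in *Zfp36*ΔARE skin, set apart upward without passing (log2 fold change 1.70, adjusted p = 0.0689, edgeR quasi-likelihood test). *Lcn2*, an iron-binding antimicrobial protein, was at -0.15 (95% interval up to 1.30).

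Of 22 genes that mark or make type 17 lymphocytes, 18 had values, since *Tcrg-C1*, *Tcrg-C2*, *Tcrg-C4* and *Trdc* were not matched to the table. Of the 18, 8 fell and 1 rose (50% called, against 34.3% of all tested genes), with a median log2 fold change of -0.46. Many of them are also expressed by other skin cells. *Rora*, *Ahr* and *Tmem176b* were at -0.41, -0.51 and -0.38 (adjusted p = 0.0256, 0.0374 and 0.0242, edgeR quasi-likelihood test) and *Maf* at 0.32 (adjusted p = 0.0232). None of these 4 was called without WT replicates 1 and 3. *Il1r1* and *Sox13* did not pass, at -0.14 and -0.31. The receptor genes *Ccr6* and *Cd163l1* are named after their values were seen and did not pass, at -0.54 and -0.65. *Irf4*, also named after the fact, was the member of the list with the lowest log2 fold change, from 419 to 892 normalized counts in WT to 232 to 282 in *Zfp36*ΔARE skin (-1.33, adjusted p = 0.0037), and was called without WT replicates 1 and 3 too. It is expressed by dendritic cells, macrophages and lymphocytes alike.

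**Figure D4:**
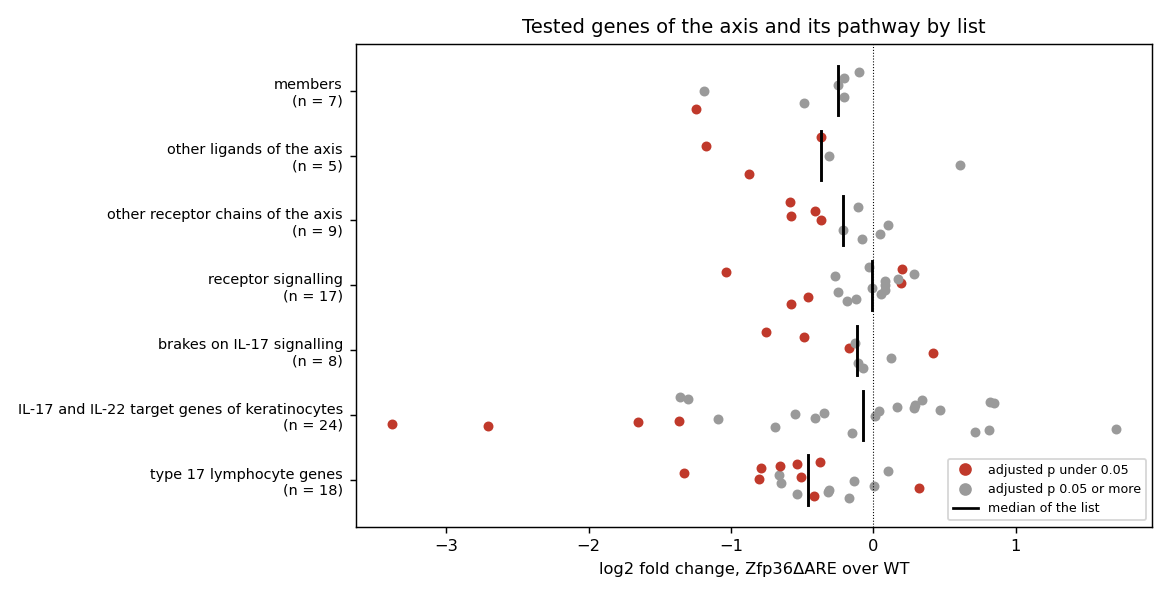
Log2 fold change of Zfp36ΔARE over WT skin for each tested gene of the axis and of 6 pathway lists (points, red at an adjusted p under 0.05), with the median of each list as a bar. The medians lie between -0.46 (type 17 lymphocyte genes) and -0.01 (receptor signalling), and the 4 called IL-17 and IL-22 target genes are all at or below -1.37.

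The genes whose pattern was most like that of each member were found as those with the smallest root mean square distance between standardized log2(CPM + 1) values over the 10 libraries, out of 13690 or 13691 tested genes of at least 50 normalized counts. For *Il23a* these were *Grem1*, a BMP antagonist (distance 0.157), *Csad*, an enzyme of taurine synthesis (0.187), and *Nrg4*, a growth factor of the EGF family (0.209), where the median gene was at 1.4. Their log2 fold changes were -1.25, -0.27 and -0.93. The match was made over both groups, so a lower level in *Zfp36*ΔARE skin follows from how these genes were chosen. The nearest genes were less close for the other members. They were *Lamtor4*, *Cept1* and *Figf* for *Il23r* (0.308 to 0.318), *Ptprcap*, *Agbl3* and *A230050P20Rik* for *Il12b* (0.363 to 0.398) and *Tap2*, *Ski* and *Paqr4* for *Il12rb1* (0.343 to 0.398). For the abundant receptor chains they were *Ebpl*, *Mydgf* and *Il4ra* for *Il17ra* (0.341 to 0.415), *Ptges*, *Dbnl* and *Tgm5* for *Il17rc* (0.322 to 0.334) and *Osbpl5*, *Adgrf2* and *Aacs* for *Il22ra1* (0.355 to 0.393). The 10 values of such a pair come from the same libraries and share their depth and tissue makeup.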

How the data were processed

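The authors removed reads with a low mean score, aligned the rest to mm10 with STAR 2.5.2b, counted fragments per gene with featureCounts (Subread 1.5.0-p1) and deposited raw counts, unnormalized, with a gene length in bases per gene. Strand and multi-mapping settings and the annotation are not given in the sources used here. The study tested with DESeq2. Here, edgeR 4.0.16 in R 4.3.3 applied TMM scaling and filterByExpr, fitted a robust quasi-likelihood model with genotype alone to all genes, and adjusted p by Benjamini-Hochberg over 15543 genes (threshold 0.05). Gene rows with no symbol (2, with 7.38e-05% of counts) were dropped. CPM and RPKM were computed from the counts and lengths. Alternatives were DESeq2 1.42.0, limma-voom (limma 3.58.1), other scalings and filters, a replicate block and left-out libraries. The members and lists were chosen with earlier results of these data known. The script was tested on simulated data. P-values set the difference between the groups against the spread between mice, and they do not separate genotype from sex.

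Genes named were the members, *Zfp36*, from each pathway list up to 4 called and 2 not called genes with the most counts, partner chains, the 3 most similar genes of each tested member and up to 2 genes with the most counts per marker list. Genes outside this rule are said to be so in the text. 3′-UTRs were those of GENCODE M21 on GRCm38. A protein or promoter sequence of *Il23a* was not used here. Replicate numbers did not pair the samples.

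Biological variation between mice had a median coefficient of 14.9%. The closest pair of libraries differed by a chi-square of 21.9 per degree of freedom, so no library was counted in duplicate. Intervals on summed counts are exact Poisson intervals and cover counting error only.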

Additional observations from a re-analysis of the deposited data

Results flagged for a closer look

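In 3 of 38 sets of 5 libraries, the highest or lowest value lay far from the rest, and chance would give about 1.9 (about 1 in 20). For *Il17a*, *Zfp36*ΔARE replicate 4 was highest, at 8.01 normalized counts against 0.749 to 2.64 in the other *Zfp36*ΔARE libraries, a gap of 0.74 relative to the range, from 6 counts. The summed adipocyte markers were highest in *Zfp36*ΔARE replicate 3, at 1149 CPM against 808 to 906 (gap 0.713), and the summed sex-linked transcripts in *Zfp36*ΔARE replicate 1, at 789 CPM against 145 to 196 (gap 0.921). That last sum holds *Xist* as well as Y-linked genes. In *Zfp36*ΔARE replicate 1, which was near 0 in Y-linked transcripts, it lay within the WT range of 605 to 790 CPM. The cause of the other outlying values was not tested.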

How the results depend on the processing

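With 19 alternatives, 1 of them (leaving out WT replicates 1 and 3 and *Zfp36*ΔARE replicate 1 together) chosen after seeing the data, *Il23a* stayed lower in each setting that tested it and passed in 15 of 18, with adjusted p from 0.0026 to 0.0961. It did not pass with a replicate block (-1.23, adjusted p = 0.0534), without WT replicates 1 and 3 (-1.05, 0.0532) or without all 3 of those libraries (-0.95, 0.0961), and ran from -1.42 to -1.09 with each library left out in turn. Members called went from 1 to 2 with DESeq2, to 0 with at least 10 counts required in every library (which drops *Il23a*), 0 with the block, 0 without WT replicates 1 and 3, 0 without those 3 libraries, and 1 to 3 with a library left out. In the order block, without WT replicates 1 and 3, without all 3, and 1 library left out, all genes called went from 5335 to 2740, 2504, 1944 and 3333 to 5349. Pathway genes called went from 29 to 13, 10, 8 and 12 to 32. Genes called with a fold over 2 went from 1292 to 526 and 446 in the middle pair of these settings and 839 to 1521 with 1 library left out. Same-numbered libraries of the 2 groups correlated at -0.192 to 0.0851 in their deviations from the group means, and none correlated best with its own number, so the block is no pairing by design.

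Signs turned within error for *Il12b* (0.020 without WT replicates 1 and 3), *Il12rb1* (0.0080 without *Zfp36*ΔARE replicate 3, -0.53 to 0.0080 with each library left out) and *Il17rb* (-0.063 without WT replicate 1, range -0.063 to 0.15). *Il12rb2* turned to 0.0077 with limma-voom, 0.18 without WT replicate 3, 0.0097 without *Zfp36*ΔARE replicate 4, and 0.25 and 0.29 without the WT pair and all 3 libraries. In those last settings *Krt17* was at -0.11 and -0.21 and *Krt6a* at -0.44 and -0.44. *Krt6a* also turned to -0.13, -0.20 and -0.04 without WT replicates 1, 3 and 5 in turn, and -0.44 without *Zfp36*ΔARE replicate 4 (range -0.44 to 0.39). The cause of these turns was not tested. Depth limits *Il17a*, *Il17f* and *Il22*, with at most 20 counts in any library.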

Other observations

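The IL-20 cytokines that share a receptor family with IL-22 were uneven between mice rather than between groups. *Il19* had 6, 5, 4, 45 and 16 counts in WT and 4, 7, 3, 84 and 22 in *Zfp36*ΔARE libraries, and *Il24* had 4, 14, 3, 27 and 8 and 0, 4, 0, 49 and 4. Replicate 4 was the highest of each group for both. The same *Zfp36*ΔARE library, replicate 4, was the highest of its group for *Il17a* (6 counts), *Il17f* (18), *Csf3*, the neutrophil growth factor (6), *Lcn2* (1048 normalized counts), *S100a8* and *S100a9*, and in summed neutrophil markers (29.6 CPM against 7.49 to 18.3). These genes were picked after their values were seen. *Il23a* in that library was at 10.7 normalized counts, within the range of the other *Zfp36*ΔARE libraries, 6.59 to 13.6.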
